A study of Sus scrofa with 12 samples.

Results

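Peptide hormones and neuropeptides are made as long precursors that are packed into dense core vesicles, cut there at pairs of basic residues and trimmed before release. Granins are acidic proteins that help to form these vesicles, and several of them are themselves precursors of peptides. The cutting is done by the prohormone convertases, the trimming by a carboxypeptidase and the final amidation by PAM, and the hypothalamus, which controls feeding, growth and the pituitary largely through peptides, depends on all of these steps. The 10 genes described here are the granins CHGB, SCG2, SCG3, SCG5 and VGF and the processing genes PCSK1, PCSK2, PCSK1N, CPE and PAM. They were taken by gene name out of 19256 protein-coding genes, and all 10 were found and passed the filter on low values that left 14641 genes to test.

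Long RNA was sequenced from the hypothalamus of 3 germ-free (GF) pigs and of 3 pigs colonized with gut microbiota (CG). All 6 were Bama piglets taken by hysterectomy from 1 sow. The GF pigs were kept without gut microbes, and the CG pigs received fecal suspension from 1 donor pig by gavage on days 3 to 7 of life. Both groups lived in sterile isolators and received sterile food, and a part of each hypothalamus was used for RNA. The labels give an age of 45 days, the study's methods a slightly younger one. The study's methods give 3 piglets per isolator but do not state which pigs shared one, so pigs of a group may have done so. An effect of the isolator and one of the microbes cannot be told apart. Values are TPM, an expression level per transcript length scaled to a fixed total in each library, which keeps no depth, so the depth of each library is unknown. The 6 libraries come from separate pigs, and the tests therefore measure the spread between littermates.

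Some libraries stood apart from their group in markers of other tissues or in their make-up. Markers of the anterior pituitary (11 of 13 listed genes in the table) summed to 2.69, 13.5 and 6.12 TPM in GF replicates 1 to 3, against 263, 26.1 and 5446 TPM in CG replicates 1 to 3. The 2 most abundant of them were CGA, the common hormone subunit, at 3579 TPM and PRL, prolactin, at 679 TPM in CG replicate 3. Transcription factors that mark the hypothalamus (20 of 20 in the table) summed to 73.1 to 147 TPM in the GF pigs and 301 to 328 TPM in the CG pigs. Of the 19 tested 9 fell, beside 2.42% of all tested genes, and 1 on the list (RAX) was listed at 0 in every GF library. Markers of the neighbouring thalamus summed to 1810, 258 and 1514 TPM in the GF pigs and 304 to 356 TPM in the CG pigs, with none of 14 called. The 13 mitochondrially encoded genes accounted for 17.8% of the mRNA signal in each GF library and 8.17 to 11.8% in the CG libraries. The labels list all pigs as male, yet the Y-linked gene ZFY stood at 0.02, 0.03 and 0 TPM in the GF pigs, against 13.7, 16.1 and 0 TPM in the CG pigs, so that 4 libraries went against that label. The part of these differences in the results below was not tested. Values with a library left out are given below. They leave in place a difference that separates all GF from all CG libraries, such as the hypothalamus sums and the mitochondrial share. In bulk tissue, fewer cells of a type and less RNA per cell cannot be told apart.

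As a set, the 10 genes were abundant. Their values added up to 2627, 2661 and 3650 TPM in the GF pigs (2979 ± 581, SD, n = 3) and to 3834, 3859 and 5169 TPM in the CG pigs (4287 ± 763, SD, n = 3), which was 0.361% ± 0.0623 of the mRNA signal in the GF pigs and 0.531% ± 0.0892 in the CG pigs. The sums did not overlap between the groups, but without PCSK1N, a check chosen after seeing the data, they did, at 2110, 2075 and 3024 TPM in the GF pigs, against 2619, 2705 and 3904 TPM in the CG pigs. CPE was the most abundant member, rank 38 of all genes by mean TPM, followed by PCSK1N at rank 69, and PCSK1 was the least abundant at rank 1683. The order of mean level over the 6 libraries was CPE (1157 TPM), PCSK1N (894), SCG2 (407), CHGB (286), SCG5 (214), PAM (206), VGF (191), SCG3 (96.5), PCSK2 (95.9) and PCSK1 (87.5). For every pair of neighbours in this order the ranges over the 6 libraries overlapped. In GF pigs CPE (1216 ± 315 TPM) was above PCSK1N (576 ± 55.5 TPM) without overlap, while in the CG pigs PCSK1N (1211 ± 55.5 TPM) and CPE (1097 ± 95.7 TPM, SD, n = 3 each) overlapped.

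One of the 10 genes, PCSK1N, fell in GF pigs by the thresholds of the study, an adjusted p below 0.05 together with an absolute log2 fold change no smaller than 1, and none rose. Over all tested genes 2.42% were called lower and 0.471% higher in GF pigs, with limma on log2(TPM + 1) and Benjamini-Hochberg adjustment over all 14641 genes. That was 354 genes lower and 69 higher, and 97 lower and 122 higher with each library centred on its median. By adjusted p alone, without the fold threshold, 2 members (PCSK1N and PAM) were lower and none higher, beside 4.93% and 1.08% of all genes. At an unadjusted p under 0.05 the count was 5 members, all lower in GF pigs, where 26.6% of all tested genes were lower and 4.31% higher. The same 5, PCSK1, PCSK1N, SCG5, SCG2 and PAM, were lower in every GF library than in any CG library, as were 32.8% of all tested genes, and no member was higher in every GF library, as were 5.42% of all genes. The median log2 fold change (GF over CG) of the members was -0.58, against -0.23 over all tested genes. By fitted log2 fold change 9 of 10 members lay below 0, as did 72.7% of all genes, but with each library centred on its median, which moves the median of all genes to 0.01, SCG3 (0.22), VGF (0.02) and PCSK2 (0.12) lay above 0, as did SCG3 (0.11) and PCSK2 (0.0052) with mitochondrial genes out of the scaling.

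**Figure D1:**
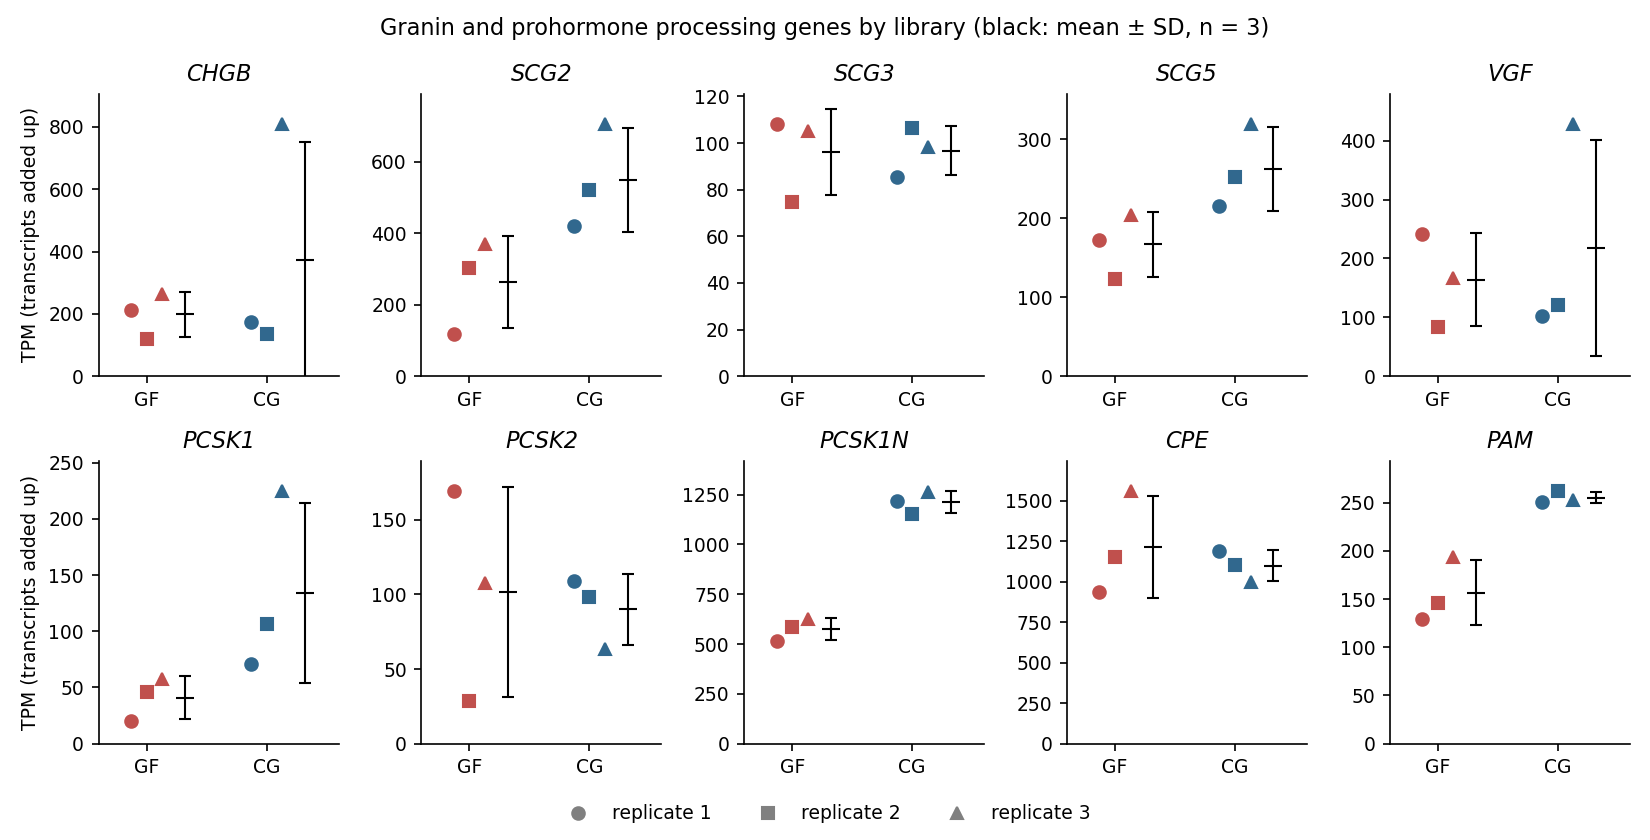
TPM of the 10 granin and processing genes (vertical axes, each from 0) in GF and CG pigs, with circles, squares and triangles for replicates 1, 2 and 3 and black bars for the mean ± SD of 3 pigs (the lower bar of CHGB in the CG pigs would pass 0 and is cut there). The groups of PCSK1N are far apart (576 ± 55.5 against 1211 ± 55.5 TPM), and PAM varies more in the GF pigs (156 ± 33.6 TPM) than in the CG pigs (255 ± 5.89 TPM). CHGB, VGF and PCSK1 stand furthest above the other CG pigs in CG replicate 3, where SCG2, SCG5 and PCSK1N are also highest.

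PCSK1N encodes proSAAS, a granin-like protein whose carboxy-terminal part inhibits the convertase PCSK1. The gene lies on chromosome X from 42947688 to 42952222 (Sscrofa11.1, RefSeq; ENSSSCG00000021328 in the files). It stood at 517, 586 and 626 TPM in the GF pigs, against 1216, 1154 and 1265 TPM in the CG pigs. The GF pigs were all at about the same low level and the CG pigs all at about the same high one, with a wide gap between them. The log2 fold change was -1.07 (SE 0.15, 95% interval -1.42 to -0.72, adjusted p = 0.0279 by limma), which is -0.84 relative to the median of all genes. In CG replicate 3, where the pituitary markers were highest and ZFY was listed at 0, this X-linked gene was 1.07 times the mean of the other CG pigs. That is 1 library, and ZFY largely followed the groups, at 0.02, 0.03 and 0 TPM in the GF pigs and 13.7 and 16.1 TPM in CG replicates 1 and 2. A part of sex or of pituitary tissue in the difference of PCSK1N was not tested. The call was lost when any 1 library other than GF replicate 2 was left out, with adjusted p = 0.0603 without GF replicate 1, 0.0692 without GF replicate 3, 0.128 without CG replicate 1, 0.148 without CG replicate 2 and 0.0598 without CG replicate 3, while the fold change stayed between -1.14 and -0.997. With mitochondrial genes out of the scaling the log2 fold change was -0.94 (adjusted p = 0.0434) and with libraries centred on their median -0.83 (adjusted p = 0.0377), both under the fold threshold.

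PCSK1, prohormone convertase 1, makes the first cuts in many precursors and lies on chromosome 2 from 103004794 to 103050707 (ENSSSCG00000014169). It stood at 19.98, 45.5 and 57.4 TPM in the GF pigs, against 70.9, 106 and 225 TPM in the CG pigs. Every GF pig was below every CG pig, with GF replicate 1 lowest and CG replicate 3 highest. The log2 fold change, -1.65 (SE 0.50, 95% interval -2.81 to -0.48), was the largest in size of the 10, and with the spread within both groups it missed the threshold (adjusted p = 0.0804 by limma). Without GF replicate 1 and CG replicate 3 it was -0.75 (adjusted p = 0.156).

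PCSK2, prohormone convertase 2, completes the cutting of peptides such as those from proopiomelanocortin, and lies on chromosome 17 from 25681424 to 25920690 (ENSSSCG00000007083). It stood at 169, 28.4 and 107 TPM in the GF pigs, against 109, 98.0 and 63.5 TPM in the CG pigs. The GF pigs spanned the whole range of the CG pigs and more, with GF replicate 2 lowest. The log2 fold change was -0.12 (SE 0.59, 95% interval -1.52 to 1.27, adjusted p = 0.910 by limma), and without GF replicate 2 it was 0.61 (adjusted p = 0.182). The interval covers a change of 2-fold in either direction, and the group means lay the other way from the fitted value, at 102 ± 70.5 TPM in the GF pigs and 90.2 ± 23.8 TPM in the CG pigs (SD, n = 3 each).

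SCG5, also named 7B2, is a granin-like chaperone without which PCSK2 does not become active, and its carboxy-terminal peptide inhibits the enzyme. It lies on chromosome 1 from 136525920 to 136590021 (ENSSSCG00000004807). Its levels were 172, 123 and 204 TPM in the GF pigs and 215, 252 and 319 TPM in the CG pigs. The groups did not overlap, but GF replicate 3 and CG replicate 1 nearly met. Its log2 fold change of -0.66 (SE 0.22, 95% interval -1.19 to -0.14) did not pass the test (adjusted p = 0.101 by limma).

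Ratios within a library do not depend on how the library was scaled, so the convertases were also set against each other and against their binding partners. PCSK1 over PCSK2 was 0.118, 1.603 and 0.534 in the GF pigs and 0.650, 1.09 and 3.54 in the CG pigs, a difference of mean log2 ratios of -1.54. PCSK1N over PCSK1, the inhibitor over its enzyme, was 25.9, 12.9 and 10.9 in the GF pigs and 17.1, 10.8 and 5.63 in the CG pigs (difference 0.60). SCG5 over PCSK2 was 1.02, 4.34 and 1.90 in the GF pigs and 1.97, 2.58 and 5.03 in the CG pigs (difference -0.53). In all 3 ratios the groups overlapped, and the two-sided exact permutation test gave p = 0.4 for each (adjusted p = 0.4 over the 3 ratios, n = 3 pigs per group), where 0.10 is the smallest p that 3 against 3 allows. Although PCSK1 and PCSK1N both had lower values in every GF pig, their ratio was thus not shown to differ. Leaving out GF replicate 2 took the difference of PCSK1 over PCSK2 to -2.43, and leaving out GF replicate 1 took it to -0.55.

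CPE, carboxypeptidase E, removes the basic residues that the convertases leave at the ends of peptides, and in its membrane form it has been described as a sorting receptor. It lies on chromosome 8 from 43568744 to 43695475 (ENSSSCG00000008854). It stood at 938, 1151 and 1558 TPM in the GF pigs, against 1192, 1100 and 1000 TPM in the CG pigs. The CG pigs lay inside the range of the GF pigs. Its log2 fold change was 0.12 (SE 0.22, 95% interval -0.40 to 0.64, adjusted p = 0.747 by limma), and it turned to -0.07 without GF replicate 3. It was the only member with a fitted log2 fold change above 0 over all 6 libraries.

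PAM, peptidylglycine alpha-amidating monooxygenase, turns a terminal glycine into the amide that many neuropeptides need to be active. It lies on chromosome 2 from 108255923 to 108536192 (ENSSSCG00000014184). It stood at 129, 146 and 194 TPM in the GF pigs, against 251, 262 and 253 TPM in the CG pigs. The CG pigs were close to each other, at a mean of 255 TPM with an SD of 5.89, and all GF pigs were below them. GF over CG, the log2 fold change was -0.72 (SE 0.17, 95% interval -1.11 to -0.34) with an adjusted p of 0.04995 by limma, just past the p threshold and not past the fold threshold. It missed the p threshold under every alternative that refitted the data, with an adjusted p between 0.0593 and 0.178 when single libraries were left out, 0.0534 with a pseudocount of 0.1, 0.0631 with no filter, 0.102 with mitochondrial genes out of the scaling and 0.120 with libraries centred on their median.

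**Figure D2:**
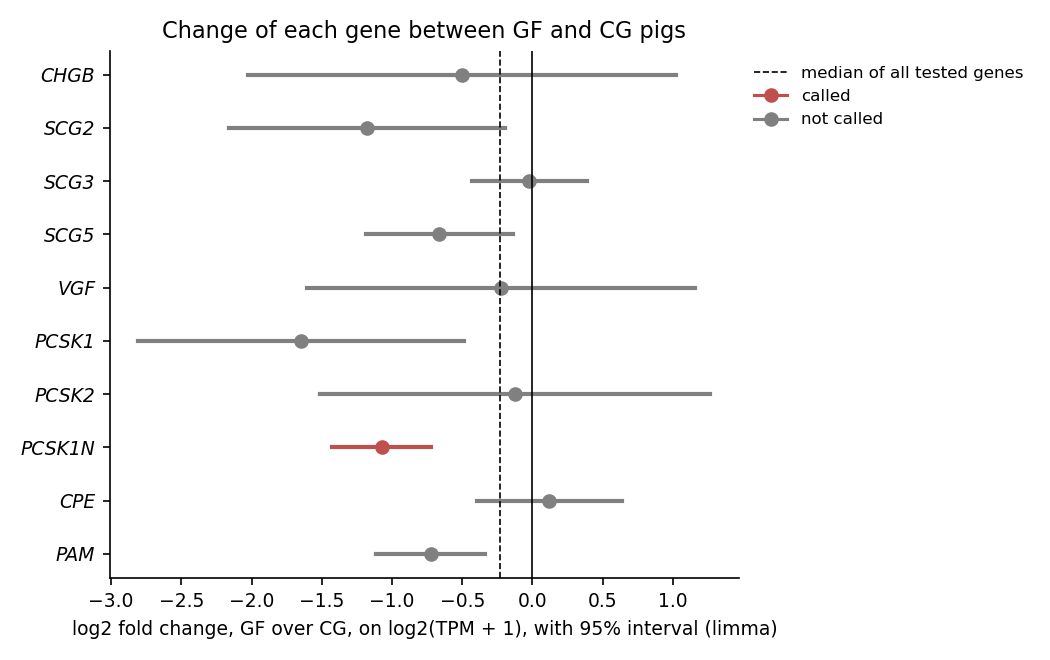
Log2 fold change (GF over CG, on log2(TPM + 1)) of each of the 10 genes with its 95% interval from limma; the dashed line marks the median of all tested genes (-0.23), and red marks the called gene. PCSK1N is the only called one, and the intervals of SCG2, SCG5, PCSK1, PCSK1N and PAM lie below 0, while those of CHGB, SCG3, VGF, PCSK2 and CPE cross it.

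Among the granins, CHGB (chromogranin B) fills the core of the vesicles and lies on chromosome 17 from 14747282 to 14761995 (ENSSSCG00000039779). It stood at 213, 119 and 263 TPM in the GF pigs, against 173, 136 and 810 TPM in the CG pigs. CG replicate 3 was 5.24 times the mean of the other CG pigs, which lay inside the range of the GF pigs. Between the groups the log2 fold change was -0.50 (SE 0.65, 95% interval -2.03 to 1.02, adjusted p = 0.634 by limma) and turned to 0.29 without CG replicate 3 (adjusted p = 0.604).

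VGF, an inducible granin that gives rise to several peptides with effects on energy balance in rodents, showed the same library at its top. It lies on chromosome 3 from 8888502 to 8891399 (ENSSSCG00000039053). It stood at 242, 83.3 and 166 TPM in the GF pigs, against 103, 121 and 429 TPM in the CG pigs. CG replicate 3 was 3.83 times the mean of the other CG pigs, and apart from it the CG pigs lay within the range of the GF pigs. Over all 6 libraries the log2 fold change was -0.22 (SE 0.59, 95% interval -1.60 to 1.15, adjusted p = 0.829 by limma), and without CG replicate 3 it was 0.42 (adjusted p = 0.551). PCSK1 was also highest in that library, at 2.53 times the mean of the other CG pigs, where the pituitary markers summed to 5446 TPM. SCG2 (1.499 times), SCG5 (1.37), PCSK1N (1.07), SCG3 (1.02), PAM (0.985), CPE (0.873) and PCSK2 (0.613) stood closer to the other CG pigs there.

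SCG2, the precursor of secretoneurin, lies on chromosome 15 from 125420773 to 125426303 (ENSSSCG00000023032). It stood at 118, 303 and 369 TPM in the GF pigs, against 420, 522 and 706 TPM in the CG pigs. The groups did not overlap, and GF replicate 1, the library with most thalamus marker signal (1810 TPM), was far below the rest. GF replicate 3, with 1514 TPM of these markers, was the highest GF library for SCG2, and a link was not tested. The log2 fold change was -1.18 (SE 0.42, 95% interval -2.16 to -0.20, adjusted p = 0.112 by limma), and without GF replicate 1 it was -0.68 (adjusted p = 0.164).

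SCG3, a granin that binds cholesterol in the vesicle membrane and holds other granins there, lies on chromosome 1 from 120045302 to 120090035 (ENSSSCG00000004630). It stood at 108, 74.8 and 105 TPM in the GF pigs, against 85.5, 107 and 98.3 TPM in the CG pigs. The groups had nearly the same mean, 96.1 ± 18.5 TPM in the GF pigs and 96.8 ± 10.6 TPM in the CG pigs (SD, n = 3 each). The interval of its log2 fold change, -0.43 to 0.39 around -0.02 (SE 0.17, adjusted p = 0.945 by limma), did not reach a change of 2-fold in either direction. By contrast, the group mean of PCSK1N was 2.101 times as high in the CG pigs.

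The files list 24 transcripts of these genes, of which 22 passed the filter and 21 had a mean of at least 1 TPM. The transcript fit called 1 of the 22 lower and none higher in GF pigs, beside 3.95% and 1.86% of the 27945 transcripts tested, and the median log2 fold change was -0.40 for the member transcripts and -0.22 for all. The called one was the main PCSK1N transcript ENSSSCT00000025387 (-1.07, adjusted p = 0.0153 by limma), which made up about 99% of the gene. At an unadjusted p under 0.05, 10 of the 22 member transcripts were lower and 2 higher, beside 23.1% and 7.17% of all tested transcripts. Without GF replicate 2 the counts were 2 lower and 1 higher, and without GF replicate 1, GF replicate 3, CG replicate 1 or CG replicate 2 no transcript was called lower. SCG2 and VGF had 1 transcript each. PCSK1 was nearly all ENSSSCT00000015478, since ENSSSCT00000076141 was listed at 0, 0.66 and 4.47 TPM in the GF pigs, against 0 in all CG pigs.

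The transcript make-up of CHGB did not overlap between the groups, while its total did. ENSSSCT00000046816 held 51.5%, 49.9% and 45.1% of the CHGB signal in the GF pigs (48.8% ± 3.31, SD, n = 3), against 80.7%, 80.1% and 81.5% in the CG pigs (80.8% ± 0.70, SD, n = 3). The other transcript, ENSSSCT00000089516, held the rest. The share was nearly the same in CG replicate 3, where the gene was highest, as in the other CG pigs. The difference was -32.0 percentage points (two-sided exact permutation p = 0.10, the smallest that 3 against 3 pigs can give) and stayed between -33.3 and -30.1 points when single libraries were left out, a check chosen after seeing the data. In TPM, ENSSSCT00000046816 stood at 110, 59.5 and 119 in the GF pigs, against 139, 109 and 661 in the CG pigs (log2 fold change -1.23, adjusted p = 0.255 by limma). ENSSSCT00000089516 stood at 103, 59.7 and 144 TPM in the GF pigs, against 33.3, 27.1 and 150 TPM in the CG pigs (0.89, adjusted p = 0.392 by limma). Of the 23059 transcript shares compared, 2.37% did not overlap between the groups and lay at least 30 points apart, a limit chosen after seeing the data. The 2 CHGB transcripts, which mirror each other, were the only ones of 20 from the members.

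PCSK2 also had transcript shares that did not overlap, with a smaller difference. Its minor transcript ENSSSCT00000071806 held 11.4%, 17.4% and 12.2% of the gene in the GF pigs and 3.05%, 3.10% and 3.84% in the CG pigs, a difference of 10.3 points (two-sided exact permutation p = 0.10, n = 3 pigs per group) that ranged from 8.46 to 11.5 points with single libraries left out. At 19.2, 4.95 and 13.1 TPM in the GF pigs and 3.33, 3.04 and 2.44 TPM in the CG pigs it did not overlap between the groups, though it missed the test (log2 fold change 1.61, adjusted p = 0.0677 by limma). The main transcript ENSSSCT00000007755 gave -0.28 (adjusted p = 0.791). Of the 4 PAM transcripts, 2 had shares that did not overlap between the groups. ENSSSCT00000053313 held 14.7%, 23.3% and 25.3% in the GF pigs and 29.2%, 31.6% and 30.2% in the CG pigs (log2 fold change of its TPM -1.26, adjusted p = 0.0557 by limma). ENSSSCT00000061569 held 19.6%, 22.3% and 11.3% in the GF pigs and 8.54%, 9.47% and 8.59% in the CG pigs, and the log2 fold change of its TPM was 0.21 (adjusted p = 0.486 by limma). In all, 3 member shares were lower and 3 higher in every GF library than in any CG library, among 20 that could be compared. Over all transcripts these were 18.5% and 16.7%, so that the counts of the members were near the background.

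For CPE the shares varied most within the GF pigs. ENSSSCT00000077913 held 20.3%, 39.1% and 7.69% in the GF pigs and 9.50%, 7.52% and 9.23% in the CG pigs, and the groups overlapped. SCG3 and SCG5 had shares that varied little and overlapped. ENSSSCT00000005113 held 81.7 to 84.5% of SCG3 in the GF pigs and 80.0 to 83.5% in the CG pigs, and ENSSSCT00000061482 held 80.6 to 82.4% of SCG5 in the GF pigs and 80.2 to 85.4% in the CG pigs.

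**Figure D3:**
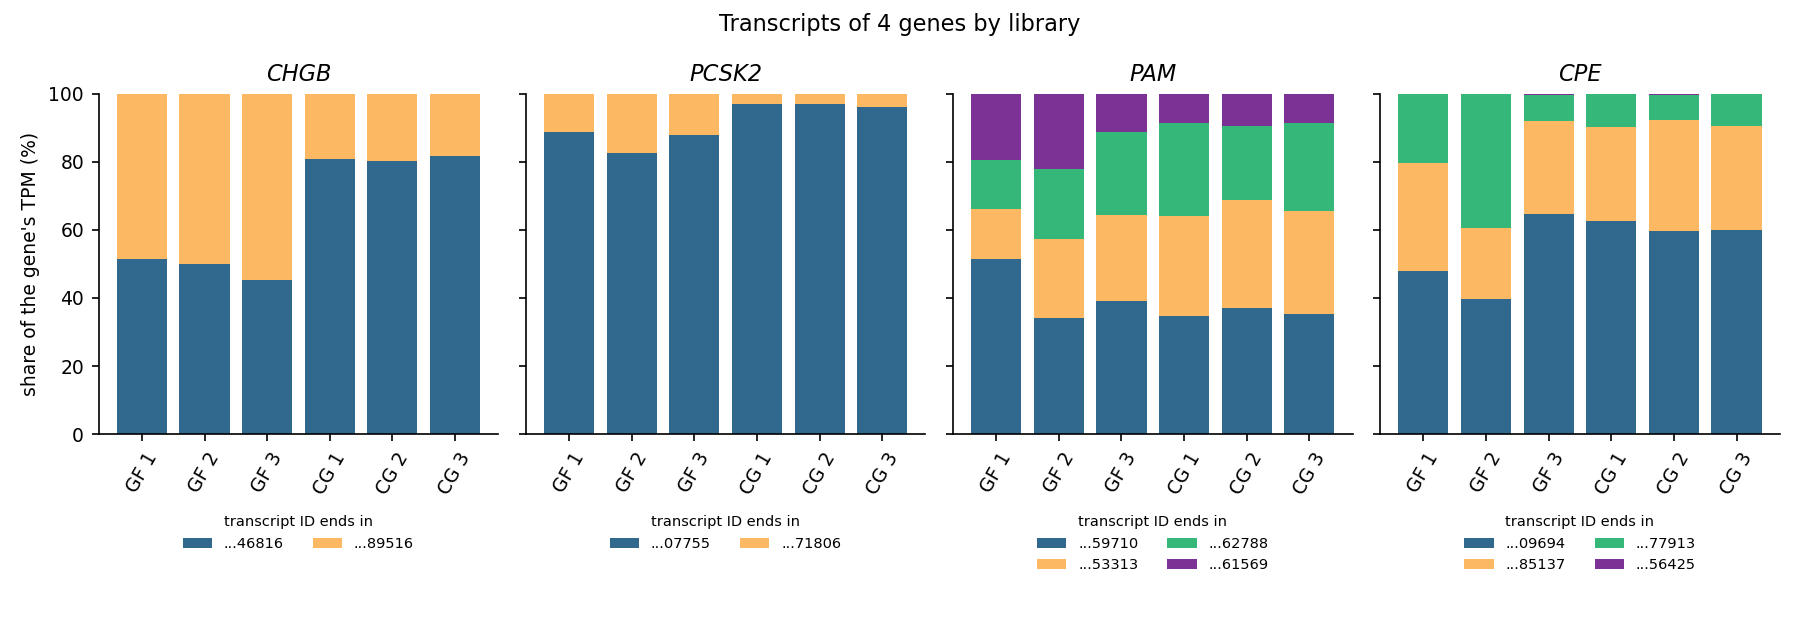
Share of each gene's TPM (vertical axis, %) taken by each of its transcripts, stacked to 100%, for CHGB, PCSK2, PAM and CPE in GF replicates 1 to 3 and CG replicates 1 to 3. In CHGB the lower segment (ENSSSCT00000046816) covers 45.1 to 51.5% in the GF pigs and 80.1 to 81.5% in the CG pigs, and in CPE the GF libraries differ among themselves.

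Other genes of the same pathway were taken from 3 lists. Of 31 other genes of dense core vesicles, all tested, 4 fell and none rose in GF pigs, beside 2.42% and 0.471% of all tested genes. The median log2 fold change was -0.36, against -0.23 over all tested genes. SLC18A2, the vesicular monoamine transporter, stood at 1.34, 4.35 and 4.28 TPM in the GF pigs, against 27.6, 38.9 and 23.2 TPM in the CG pigs (log2 fold change -2.90, adjusted p = 0.0207 by limma). CHGA, chromogranin A, a granin related to CHGB, stood at 11.9, 4.97 and 14.3 TPM in the GF pigs, against 63.4, 56.8 and 191 TPM in the CG pigs (-3.08, adjusted p = 0.0327). Unlike CHGB it was lower in every GF pig than in any CG pig, also apart from CG replicate 3. SYT10, a calcium sensor of exocytosis, fell as well (11.6 ± 4.46 TPM in the GF pigs and 31.2 ± 2.76 TPM in the CG pigs, SD, n = 3 each, adjusted p = 0.0426 by limma). The remaining called gene was SYT5, another synaptotagmin (84.3, 112 and 155 TPM in the GF pigs, against 225, 259 and 236 TPM in the CG pigs, adjusted p = 0.0441 by limma). PTPRN, a phosphatase-like protein of the vesicle membrane, passed the p but not the fold threshold (110 ± 19.2 TPM in the GF pigs and 217 ± 35.2 TPM in the CG pigs, log2 fold change -0.97, adjusted p = 0.0366 by limma). The summed level of the list was 2132, 1420 and 2176 TPM in the GF pigs and 1956 to 2195 TPM in the CG pigs. Without GF replicate 1 the count of genes called lower was 1, without GF replicate 3 or any 1 CG library it was 0, and without GF replicate 2 a further 2 were called higher.

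Of 20 listed genes, other processing enzymes with SERPINI1, 18 were tested, 1 fell and none rose, beside 2.42% and 0.471% of all tested genes. The median log2 fold change was -0.41, against -0.23 over all tested genes. The list summed to 667, 609 and 585 TPM in the GF pigs, against 693, 716 and 805 TPM in the CG pigs. The one that fell was QPCT, glutaminyl cyclase, which caps peptides with pyroglutamate. It stood at 8.17, 7.78 and 10.03 TPM in the GF pigs, against 19.1, 19.2 and 25.8 TPM in the CG pigs (-1.20, adjusted p = 0.0293 by limma). The next by p were MBTPS1, a convertase of the Golgi (-0.46, adjusted p = 0.0623), SERPINI1, neuroserpin (-0.64, adjusted p = 0.129), and CPXM1, a carboxypeptidase-like protein (-1.35, adjusted p = 0.141). The call of QPCT was lost without any 1 library other than GF replicate 2.

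Of 28 peptide precursors, the substrates of these enzymes, 26 were in the table and tested. Of these 4 fell and none rose, beside 2.42% and 0.471% of all tested genes. The median log2 fold change was -1.54, against -0.23 over all tested genes. AGRP, a feeding peptide of the arcuate nucleus, was listed at 0, 0.28 and 0 TPM in the GF pigs, against 8.83, 23.5 and 15.3 TPM in the CG pigs (-3.86, adjusted p = 0.00624 by limma). GHRH, which releases growth hormone, stood at 0.10, 0.82 and 2.05 TPM in the GF pigs, against 13.5, 12.7 and 23.6 TPM in the CG pigs (-3.21, adjusted p = 0.0217). KISS1 (-1.41, adjusted p = 0.0320) and TAC1 (-1.94, adjusted p = 0.0481), precursors of kisspeptin and of substance P, were the other two. The list summed to 383, 1755 and 1727 TPM in the GF pigs, against 1904, 3754 and 2086 TPM in the CG pigs. The median fold change of the substrates was thus larger in size than that of the members, a difference that was not tested. Without any 1 CG library no precursor was called lower, without GF replicate 1 the count was 2, and without GF replicate 2 it was 7.

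Markers of whole cell types gave a different picture from the hypothalamic and pituitary lists. Over all tested genes 2.42% were called lower and 0.471% higher. Of 13 neuron markers in the table none was called. By adjusted p alone 1 of them was higher in GF pigs, beside 1.08% of all genes. The neuron markers had a median log2 fold change of -0.22. Their sum was 7693, 4269 and 7190 TPM in the GF pigs and 5835 to 6632 TPM in the CG pigs. Oligodendrocyte markers (11 genes) summed to 13792, 19876 and 8573 TPM in the GF pigs and 6901 to 10093 TPM in the CG pigs, with 1 called higher, MBP, myelin basic protein (1435, 3032 and 1465 TPM in the GF pigs, against 238, 243 and 234 TPM in the CG pigs, log2 fold change 2.95). Astrocyte markers (9 genes) summed to 2181 to 3221 TPM in the GF pigs and 2847 to 3538 TPM in the CG pigs, with none called. Choroid plexus markers (8 genes) summed to 147 to 338 TPM in the GF pigs and 94.98 to 140 TPM in the CG pigs. TTR (log2 fold change 3.60) and CLIC6 (1.47) were called higher, while 6 did not pass the p threshold, and the median was 0.13. TTR stood at 132, 200 and 43.9 TPM in the GF pigs, against 8.68, 5.72 and 9.28 TPM in the CG pigs. The separation of the choroid plexus sums rested on this gene. GF replicate 2, lowest for neuron markers and highest for oligodendrocyte and choroid plexus markers, was also the lowest GF library for CHGB, SCG3, SCG5, VGF and PCSK2. The other members, SCG2, PCSK1, PCSK1N, CPE and PAM, were lowest in GF replicate 1, and a link to the markers was not tested.

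**Figure D4:**
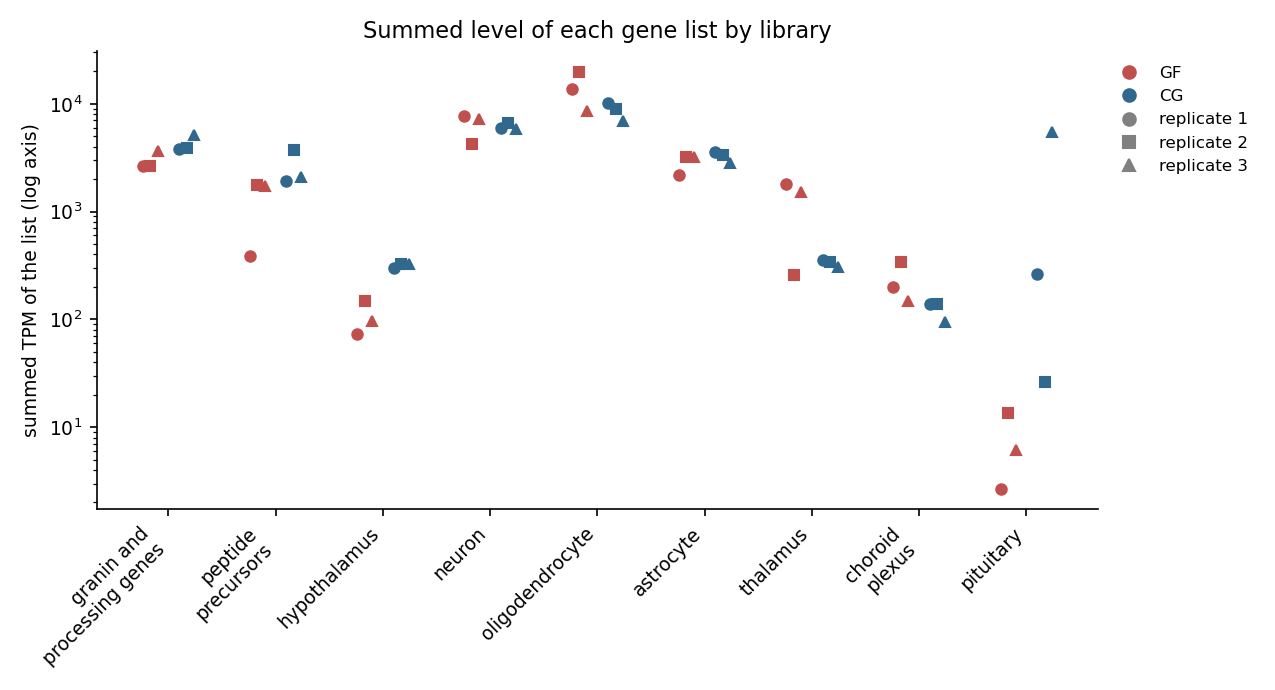
Summed TPM (log axis) of the 10 granin and processing genes and of 8 gene lists in each library, GF in red left of CG in blue, with circles, squares and triangles for replicates 1, 2 and 3. The 10 genes, the peptide precursors, the hypothalamus markers and the pituitary markers are lower in every GF library than in any CG library. The neuron, oligodendrocyte, astrocyte and thalamus markers overlap. The sum of the choroid plexus markers is higher in every GF library, which rests on TTR. The pituitary markers reach 5446 TPM in CG replicate 3.

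How the members moved together was described by the mean of their standardized values per library, which was lowest in GF replicate 2 (-1.04) and highest in CG replicate 3 (0.90), with GF replicate 3 (0.24) above CG replicate 1 (0.10). Over the 6 libraries SCG5 followed this mean most closely (Pearson r = 0.978), before PAM (0.834), PCSK1 (0.811), PCSK1N (0.759), SCG2 (0.727), CHGB (0.707), VGF (0.581), SCG3 (0.513), PCSK2 (0.298) and CPE (0.0717). Each of these values contains the gene itself, and all points share the scaling of their library. The 5 other tested genes with the most similar course were ACVR1B (r = 0.993), TMEM9B (0.992), RND3 (0.992), VGLL3 (0.991) and AIG1 (0.990), with log2 fold changes between -0.55 and -0.20 and none called. These are the highest among the tested genes that have a symbol and are not members. Genes without a symbol were left out of this ranking. The values rest on only 6 points and are given as a description.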

How the data were processed

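Per the labels and the study's methods, total RNA of 6 hypothalami was depleted of ribosomal RNA and sequenced. The deposited long RNA values are TPM per annotated transcript, which the authors made from reads aligned to Sscrofa11.1. The study's methods name TopHat, Cufflinks and HTSeq, the submitters' processing notes fastp, HISAT and RSEM. TPM keep no counts, so the authors' edgeR test could not be run and no counting interval is given. Unmapped value columns numbered 0. The miRNA and lncRNA tables were not used here.

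TPM of transcripts were added up per gene. Features with at least 1 TPM in at least 3 libraries were tested on genes and on transcripts by the trend method of limma 3.58.1 under R 4.3.3, on log2 values with a pseudocount of 1, with Benjamini-Hochberg adjustment over all features tested. The fit was tested on simulated data. Ratios and the shares of the members' transcripts were tested by exact permutation with scipy 1.17.1 (Python 3.11.15). A fold change on log2(TPM + 1) understates that of low genes.

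The members and all lists were chosen with earlier results of these data known. Named beside the 10 members and their transcripts were the up to 4 genes with the smallest p of each of 3 pathway lists. The 2 most abundant pituitary genes were named too, and the 5 other genes with a symbol most like the members' mean course. ZFY, RAX, SYT5, MBP, TTR and CLIC6 were named after their values were seen. Gene positions and symbols came from RefSeq (Sscrofa11.1), where 10 members matched. S100B, AQP1, CADPS, TUBB3, NEFM, POMC, NMB, GNRHR, LHB and MOBP of the lists were not found under these symbols. Alternatives were a pseudocount of 0.1, no filter, no fold threshold, a replicate block, leaving out libraries, scaling without the 13 mitochondrial genes and centring libraries on their median.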

Additional observations from a re-analysis of the deposited data

How the results depend on the processing

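The count of 1 member called lower became 0 with a replicate block, with GF replicate 1 and CG replicate 3 both left out, with mitochondrial genes out of the scaling and with libraries centred on their median, and 2 without the fold threshold, and it ranged from 0 to 1 when single libraries were left out. A count of 0 members called higher held under every alternative run. Member transcripts called lower (1) became 0 with both libraries left out and with centring and ranged from 0 to 2 with single libraries left out, and those called higher from 0 to 1. PCSK1N kept its sign in all 12 alternatives (-1.14 to -0.83, adjusted p from 0.0217 to 0.148 by limma), and lost its call in 9. SCG2, SCG5 and PCSK1 kept their sign and stayed uncalled. PAM kept its sign, was called only without the fold threshold, and had an adjusted p of 0.0890 with the replicate block and 0.150 with both libraries left out. Signs turned for CHGB (0.21 with both libraries left out, -0.99 to 0.29 with single ones left out), VGF (0.0765 with both left out, 0.0196 centred, -0.60 to 0.42 with single ones left out), SCG3 (0.11 without mitochondrial genes, 0.22 centred, -0.12 to 0.15), PCSK2 (0.0052 without mitochondrial genes, 0.12 centred, -0.65 to 0.61) and CPE (-0.0748 to 0.29). The 3 ratios kept their sign under every alternative run, with differences of -2.43 to -0.55 for PCSK1 over PCSK2, 0.17 to 0.98 for PCSK1N over PCSK1 and -1.08 to -0.04 for SCG5 over PCSK2 when single libraries were left out.

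Replicate numbers share only a number: the residuals of same-numbered pigs correlated at -0.02, 0.06 and -0.01. With the replicate block PCSK1N had an adjusted p of 0.0724 by limma, and the exact sign-flip p of the paired ratios was 0.5, 0.25 and 0.5, where 0.25 is the smallest possible. Over all genes the calls were 354 lower and 69 higher, 18 and 17 with the block, 97 and 122 centred, 115 and 65 without mitochondrial genes, 141 and 51 without a filter, 8 and 8 with both libraries left out, and 4 to 528 lower with single libraries left out. Of the vesicle list 4 genes were called lower, 2 with the block, centred or without mitochondrial genes, and 1 without a filter or with both libraries left out, alternatives chosen after seeing the data like those of the other lists. The precursor list had 4, 2 with the block and 0 with both left out, and QPCT lost its call with the block, centred and with both left out. The 3 pigs per group limit the precision.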
